A study of Homo sapiens with 18 samples.

Results

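The first response of Raji cells to 3 compounds given together was measured by setting the 3 arrays of 4 h against the 3 arrays of 0 h, which are 6 of the 18 arrays of a time course that ran on to 8, 12, 24 and 48 h. All probe sets that name 1 gene entered, with the probe set of highest mean standing for its gene, and this gave 18417 genes. Raji cells are an established line of human Burkitt lymphoma B cells and carry Epstein-Barr virus. The 4 h cells and the 0 h cells carry the same treatment in the labels, which is sodium n-butyrate at 3 mM, a phorbol ester at 0.05 µM and maslinic acid at 19 µM, and the labels set the groups apart by the hours before harvest. They do not say whether the 0 h cells were harvested before or just after the compounds were added. The labels call the 3 arrays of each time biological replicates and give 200 ng of total RNA as the input. Untreated cells of 4 h and cells given 1 compound were not analysed here, so the compounds cannot be told apart from each other or from the hours in culture.

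Phorbol esters stand in for diacylglycerol and activate protein kinase C and the RASGRP exchange factors, which feed the RAS and ERK cascade and NF-kappaB in B cells. Serum response factor and ETS proteins then switch on immediate early genes, which need no new protein synthesis, and the products of several such genes damp the same cascade. Butyrate inhibits histone deacetylases and changes transcription at many promoters, and in Epstein-Barr virus-positive lines the phorbol ester and butyrate are used as a pair to start the lytic programme of the virus. Maslinic acid is a triterpene of olive and other plants.

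Every level below is a deposited log2 intensity, so that a difference of 1 is a 2-fold change. Over all genes the array medians were 4.43 to 4.51 at 4 h and 4.34 to 4.44 at 0 h, and the median over genes of the SD between the 3 arrays was 0.18 at 4 h and 0.20 at 0 h. The labelled cell type was checked on 7 measured B cell markers, whose mean was 7.05 to 7.90 on the 4 h arrays and 7.55 to 7.94 on the 0 h arrays. All 7 lay above the array median on each of the 6 arrays, and none was called changed. All 7 differences between 4 h and 0 h were negative, with a median of -0.30 beside 0.03 over all genes. The marker lists of fibroblasts, epithelium, erythroid cells, monocytes and T cells had list means between 3.42 and 3.91 on the 6 arrays, and 0 of these 36 genes were called. The arrays numbered 3 of both times stood apart from the others for some genes, and their values are given with those genes.

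More genes rose than fell at 4 h. Of 18417 genes, 322 (1.75%) passed limma's moderated test at a Benjamini-Hochberg adjusted p under 0.05, of which 214 (1.16%) were higher and 108 (0.586%) lower at 4 h. After median centring of the arrays the split was closer, 164 higher and 144 lower (53.2% higher, against 66.5% for the values as deposited). At least a 2-fold difference was reached by 123 of the genes called higher and by 50 of those called lower. An unadjusted p under 0.05 in the same test was reached by 2391 of the 18417 genes. List counts at that level below are to be read beside it. The median difference was 1.06 over the genes called higher and -0.97 over those called lower, beside 0.03 over all genes. The genes called in either direction were mostly well expressed already at 0 h, with a median level of 6.34 for those called higher and 6.43 for those called lower, beside 4.39 over all genes. Differences of dim genes may be lost in background signal, and whether that shaped these levels was not tested. The 3 arrays of 4 h did not overlap the 3 of 0 h for 320 of the 322 genes, beside 18.4% of all genes. In bulk RNA, fewer cells that express a gene and less RNA per cell cannot be told apart.

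How many genes passed rested on few arrays. Fitted on the 6 arrays alone, 125 genes were called, and with 1 of the 6 arrays left out between 109 (replicate 2 of 4 h left out) and 256 (replicate 3 of 0 h left out). Of the 25 largest rises, 18 kept an adjusted p under 0.05 whichever of the 6 arrays was left out, and of the 25 largest falls 11 did. A gene that did so is called stable below, and for the other called genes the text says how many of the 6 omissions ended the call. The word covers single arrays only. Of 36 stable genes among those named by rule, 7 were not called when both arrays numbered 3 were left out, an alternative chosen after seeing the data, and 6 were not called in the fit on the 6 arrays alone. Those adjusted p values stand beside the genes. For calls that were not stable these fits are mostly not listed, and some of those genes were not called there either.

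**Figure D1:**
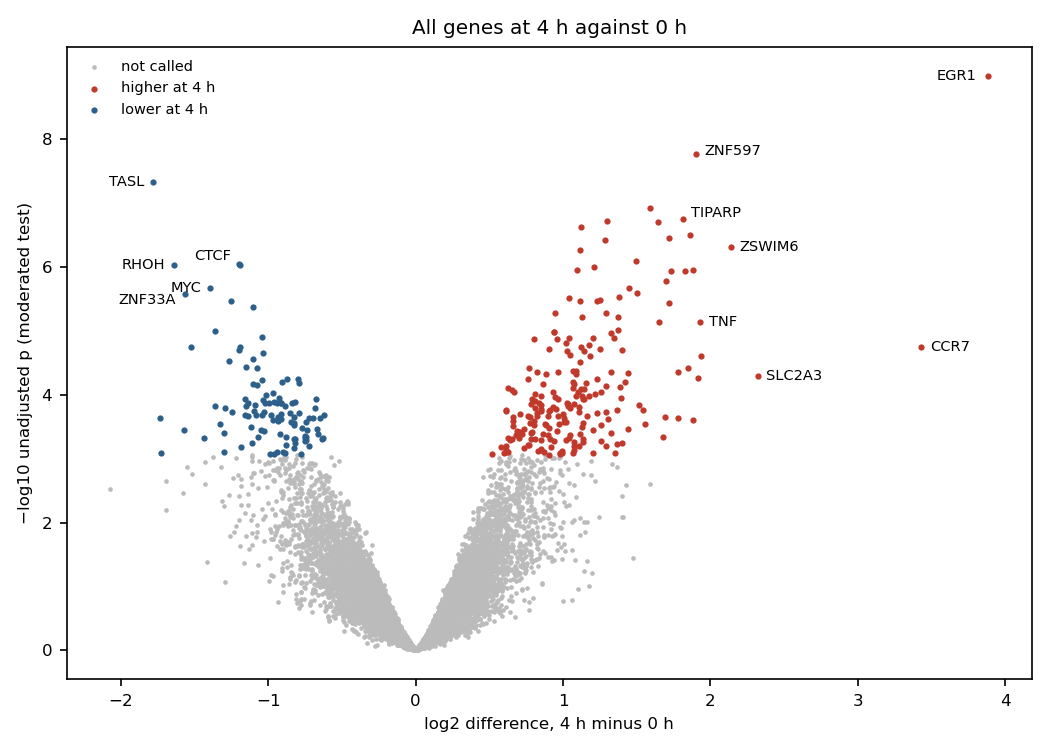
Each point is 1 of 18417 genes, with the difference in log2 intensity between 4 h and 0 h on the horizontal axis, -log10 of the unadjusted p on the vertical axis and the called genes in colour. The 214 genes called higher reach a difference of 3.88 for EGR1, and the 108 called lower reach -1.78 for TASL.

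EGR1, a zinc finger transcription factor and a standard immediate early gene, showed the largest difference of all 18417 genes. Its values were 10.11, 10.41 and 10.05 at 4 h, against 5.89, 6.05 and 6.98 at 0 h. The 3 arrays of 4 h lay close together and far above each 0 h array. The rise of 3.88 (SE 0.33) was 14.8-fold, with limma's adjusted p at 1.88e-05, and was stable. EGR1 lies on chromosome 5. Its RefSeq promoter window, from 250 bases before to 50 bases after the start, is shown because it holds the element this gene is known for. It spans chr5:138465229-138465528 of GRCh38.p14 on the plus strand, with the matches to the CArG box, the binding site of serum response factor, in capitals.
EGR1: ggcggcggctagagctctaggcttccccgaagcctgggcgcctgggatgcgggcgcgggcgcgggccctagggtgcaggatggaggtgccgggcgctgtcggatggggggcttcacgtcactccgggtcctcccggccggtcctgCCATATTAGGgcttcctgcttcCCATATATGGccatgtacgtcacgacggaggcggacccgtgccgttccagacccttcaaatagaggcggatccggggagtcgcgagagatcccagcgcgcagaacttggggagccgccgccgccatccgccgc
The 2 CArG boxes lie at positions -105 to -96 and -83 to -74 from the start. A CArG box on either strand was found in 1.22% of the 14237 promoter windows, in 1.1% of the 181 that belong to genes called higher and in 1.25% of the 80 that belong to genes called lower. A match describes the letters of the window and shows no binding.

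The other immediate early genes differed far less between 4 h and 0 h than EGR1. No array was taken between these times, so a change that had passed by 4 h would not be seen. Of 25 measured immediate early transcription factor genes 4 rose (16%, beside 1.16% of all genes called higher) and 0 fell, with a list median of 0.39 beside 0.03 over all genes. Only 1 was called without replicate 2 of 4 h, replicate 3 of 4 h or replicate 2 of 0 h, and 2 without replicate 1 or 3 of 0 h. FOS, the AP-1 subunit, had 6.13, 5.87 and 6.23 at 4 h, against 4.80, 3.65 and 4.42 at 0 h. All 4 h arrays were above all 0 h arrays, and the rise of 1.78 (SE 0.39) was 3.44-fold with an adjusted p of 0.0215. ZFP36L1, which destabilises AU-rich mRNAs, was 2.06-fold higher at 4 h, and the orphan nuclear receptor gene NR4A3 was 1.58-fold higher. For FOS and NR4A3 5 of the 6 single-array omissions ended the call, and for ZFP36L1 4 did, with adjusted p up to 0.139. Of further members chosen after their values were seen, the AP-1 gene JUNB read 6.41, 6.49 and 6.97 at 4 h, against 5.75, 5.90 and 5.85 at 0 h, and did not pass the test (adjusted p 0.356). JUN averaged 4.12 ± 0.39 at 4 h and 3.73 ± 0.15 at 0 h (SD, n = 3 each), with overlapping arrays. EGR3 lay at 4.02 ± 0.11 at 4 h and 4.01 ± 0.08 at 0 h (SD, n = 3 each). The AP-1 motif TGANTCA, on either strand, was found in 4.97% of the windows of genes called higher and in 1.25% of those called lower, beside 5.58% of all.

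Of 17 measured genes of the ERK and MAP kinase feedback list 6 rose (35.3%, beside 1.16% of all genes called higher), 0 fell and 11 did not pass. The list median was 0.37 beside 0.03 over all genes. The list is wider than brakes on RAS and ERK alone. The fit on the 6 arrays alone called 1 of the 17, RGS2, and 1 was called when either replicate 1 or replicate 2 of 4 h was left out, against 3 or 4 without any other of the 6 arrays. SPRED2, which binds RAS and RAF and blocks their signal, had 7.25, 7.12 and 6.35 at 4 h, against 5.82, 5.03 and 4.53 at 0 h. Replicate 3 was the lowest array of each time, and the groups did not overlap. The rise of SPRED2 was 3.44-fold (difference 1.78, SE 0.33, adjusted p 0.01), and it was lost without replicate 1 of 4 h (0.0515) or replicate 2 of 4 h (0.0582). Its relative SPRED1 was 2.13-fold higher. The dual-specificity phosphatase genes DUSP10, DUSP5 and DUSP2 were 2.31-fold, 2.13-fold and 2.07-fold higher at 4 h, and RGS2, a brake on G protein signals, was 2.45-fold higher. Of these, DUSP5, which acts on nuclear ERK, was stable, though not called in the fit on the 6 arrays alone (adjusted p 0.0761) or without both arrays numbered 3 (0.0958). Its values were 5.26, 5.50 and 5.88 at 4 h, against 4.09, 4.81 and 4.48 at 0 h. The calls of RGS2, DUSP10, SPRED1 and DUSP2 were ended by 3 to 6 of the 6 omissions, with adjusted p up to 0.185. The ERK phosphatase gene DUSP6, chosen after its values were seen, averaged 2.84 ± 0.02 at 4 h and 3.10 ± 0.34 at 0 h (SD, n = 3 each). That level is below the lower quartile of genes on each 4 h array.

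Among protein kinase C and RASGRP genes, 0 of 19 measured were called in either direction, and 1 of the 19 had an unadjusted p under 0.05. The exchange factor gene RASGRP1 had 7.13, 7.27 and 7.04 at 4 h, against 7.72, 7.63 and 8.28 at 0 h, an adjusted p of 0.216. Among other genes of the RAS family, RGL1, an exchange factor for RAL, was among the 25 largest rises. RGL1 read 6.52, 6.17 and 7.20 at 4 h, against 5.14, 4.78 and 4.76 at 0 h, and the groups did not overlap. Its rise was 3.33-fold (adjusted p 0.000978) and stable. RND1, a small GTPase gene, was 3.21-fold higher (adjusted p 0.0333), a call that 5 of 6 omissions ended, with adjusted p up to 0.121. Of the Kruppel-like factors 2 of 17 rose (11.8%, beside 1.16% of all genes called higher). KLF10, a repressor induced by TGF-beta, had 7.28, 7.26 and 7.28 at 4 h, against 6.14, 5.87 and 5.56 at 0 h. The 4 h arrays were nearly equal and above every 0 h array, with a 2.67-fold rise (adjusted p 0.0122) that was lost without replicate 2 of 4 h (0.0512). KLF3 was 1.67-fold higher, and 4 of 6 omissions ended its call, with adjusted p up to 0.149.

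**Figure D2:**
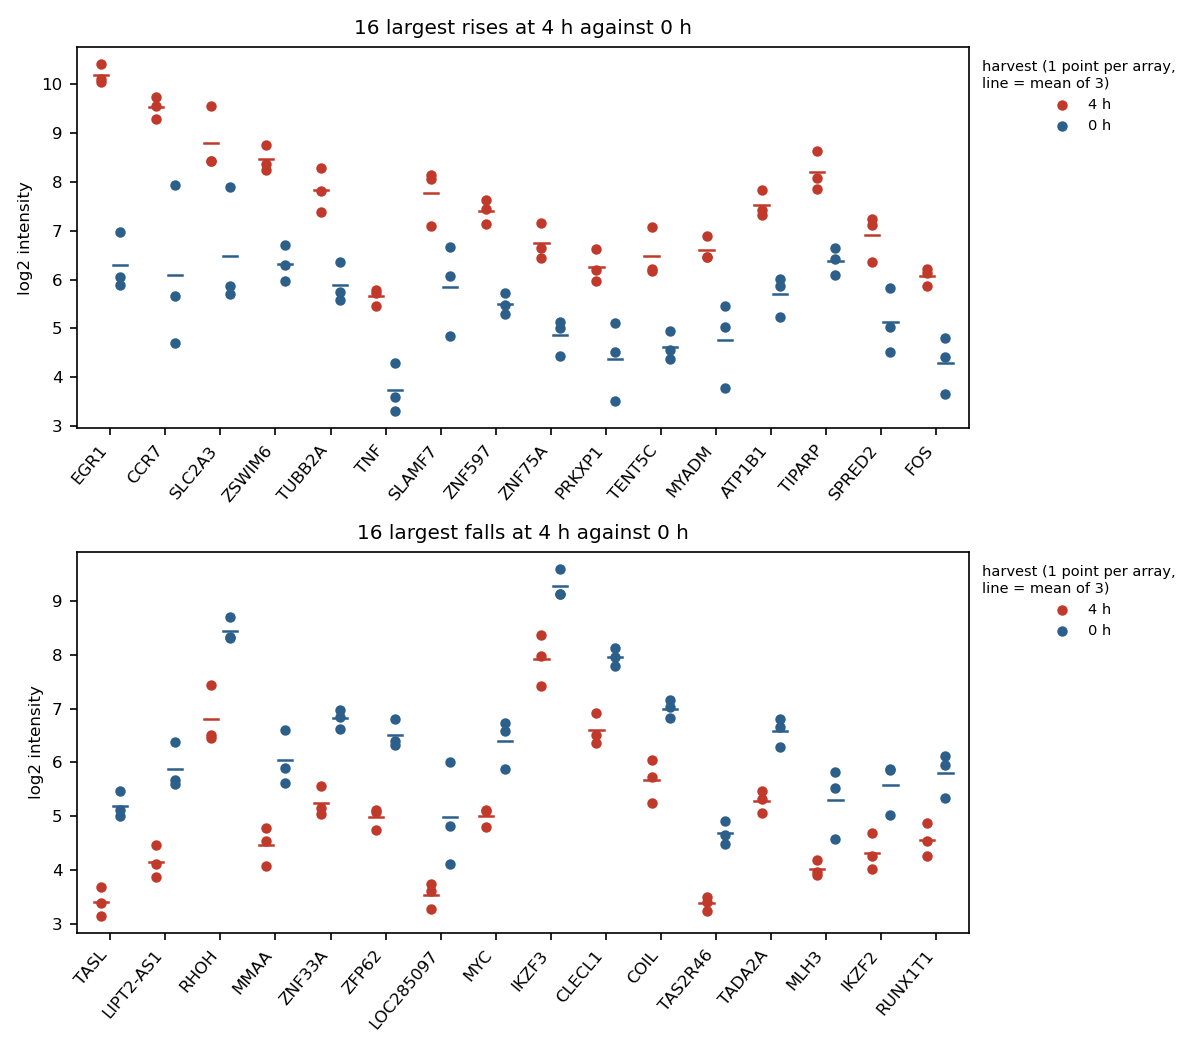
Log2 intensity (vertical axis) on each array for the 16 largest rises and the 16 largest falls, with 4 h left of 0 h and a line at each mean. In EGR1 the 4 h arrays lie at 10.05 to 10.41 and the 0 h arrays at 5.89 to 6.98, while in CCR7 the 0 h arrays spread between 4.69 and 7.93.

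TNF, a leading NF-kappaB target and inflammatory cytokine gene, had the largest rise among the TNF ligand and chemokine genes. It had 5.73, 5.46 and 5.79 at 4 h, against 4.28, 3.31 and 3.59 at 0 h, and its 3 probe sets held identical values. All 4 h arrays were above all 0 h arrays, and the stable rise was 3.82-fold (difference 1.93, SE 0.31, adjusted p 0.00331). TNF lies on chromosome 6, and its RefSeq window is shown because the gene stood out among its family. It spans chr6:31575315-31575614 of GRCh38.p14 on the plus strand, with matches to the Sp1 motif GGGCGG, on either strand, in capitals.
TNF: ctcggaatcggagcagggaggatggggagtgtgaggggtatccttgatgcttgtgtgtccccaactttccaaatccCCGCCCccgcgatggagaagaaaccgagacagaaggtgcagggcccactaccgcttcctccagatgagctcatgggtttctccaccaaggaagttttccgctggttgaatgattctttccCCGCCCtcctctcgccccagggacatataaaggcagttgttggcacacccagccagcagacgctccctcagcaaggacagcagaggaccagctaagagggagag
The window holds 2 Sp1 motifs and no match to the NF-kappaB site, AP-1 motif, CRE or CArG box searched, and nothing about the factors follows from letters not found here. An NF-kappaB site was found in 13.3% of the windows of genes called higher and in 13.8% of those called lower, beside 12.4% of all.

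In the TNF ligand and receptor list, TNF was the 1 riser among 30 measured members, and TNFRSF17, the receptor BCMA of plasma cells, was the 1 that fell. That was 3.33% each way, beside 1.16% of all genes called higher and 0.586% called lower. TNFRSF17 had 3.43, 2.84 and 2.70 at 4 h, against 4.39, 3.47 and 3.86 at 0 h, and 4 of 6 omissions ended its call, with adjusted p up to 0.14. Of 18 NF-kappaB subunit and inhibitor genes 1 rose (5.56%, beside 1.16% of all genes called higher). TNFAIP3, which encodes the ubiquitin-editing inhibitor A20, had 6.96, 7.15 and 6.99 at 4 h, against 4.94, 5.11 and 5.96 at 0 h, and was 3.23-fold higher (adjusted p 0.0214). Of the 6 omissions 5 ended that call, with adjusted p up to 0.107. CYLD, a deubiquitinase of the same pathway, read 7.93, 7.95 and 8.61 at 4 h, against 7.01, 6.64 and 7.73 at 0 h, with replicate 3 highest at both times, and missed the threshold at 0.0658. The inhibitor gene NFKBIA, chosen after its values were seen, averaged 7.90 ± 0.40 at 4 h and 7.18 ± 0.23 at 0 h (SD, n = 3 each, adjusted p 0.372). Over the 18 genes 15 differences were positive, with a median of 0.30 beside 0.03 over all genes.

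Among costimulatory and activation genes 1 of 16 rose (6.25%, beside 1.16% of all genes called higher). The list median was 0.29 beside 0.03 over all genes. CD83, a surface protein of activated B cells and dendritic cells, had 9.65, 9.54 and 9.18 at 4 h, against 7.72, 7.96 and 7.53 at 0 h. The groups were well apart, and the stable rise was 3.3-fold (adjusted p 0.00201). CD86, the ligand of CD28, read 8.06, 8.01 and 6.82 at 4 h, against 6.77, 6.89 and 6.22 at 0 h. In CD86 replicate 3 was the lowest at both times and its 4 h value overlapped the 0 h arrays (adjusted p 0.274). CD69, an early activation antigen chosen after its values were seen, showed the same split, with 7.87, 8.06 and 5.66 at 4 h, against 6.34, 6.47 and 5.57 at 0 h (adjusted p 0.6). Of 16 chemokine ligand genes 0 were called, and 1 had an unadjusted p under 0.05.

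Of 21 lymphocyte homing receptor genes 1 rose (4.76%, beside 1.16% of all genes called higher), and it was the second largest rise of all. CCR7, which guides B cells toward T cell zones of lymph nodes, had 9.74, 9.30 and 9.55 at 4 h, against 5.67, 4.69 and 7.93 at 0 h. The 4 h arrays were alike, while replicate 3 of 0 h was already far above the other 0 h arrays, so that the SD was 0.22 at 4 h and 1.66 at 0 h. The 10.8-fold rise (difference 3.43, SE 0.59, adjusted p 0.00579) was stable, but not called in the fit on the 6 arrays alone (0.0647). Its size rested on the 0 h arrays, being 20.3-fold without replicate 3 of 0 h and 6.63-fold without replicate 2 of 0 h. ACKR4, a scavenging receptor for the same chemokines, read 7.20, 6.98 and 5.16 at 4 h, against 8.24, 8.01 and 6.88 at 0 h, and did not pass (adjusted p 0.234). In ACKR4 replicate 3 was the lowest array of each time.

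The SLAM family, self-ligand receptors of lymphocytes, had 10 measured members, of which 1 rose and 1 fell. That was 10.0% each way, beside 1.16% of all genes called higher and 0.586% called lower. SLAMF7, a plasma cell and activation antigen, had 8.05, 8.14 and 7.11 at 4 h, against 6.07, 4.84 and 6.66 at 0 h, a 3.77-fold rise (adjusted p 0.0117). Replicate 3 was the lowest at 4 h and the highest at 0 h. Leaving out replicate 1 of 4 h (adjusted p 0.0534) or replicate 2 of 4 h (0.0686) ended the call of SLAMF7, and it was not called in the fit on the 6 arrays alone (0.098). CD84 had 6.91, 6.75 and 6.91 at 4 h, against 7.79, 7.63 and 8.06 at 0 h, and was 1.96-fold lower (adjusted p 0.0224). Its arrays did not overlap between the times, though 5 of 6 omissions ended the call, with adjusted p up to 0.105.

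Among called genes of lymphoid regulation, RHOH, IKZF3 and IKZF2 fell. RHOH, a GTPase-deficient signalling protein of blood cells, had 6.46, 6.51 and 7.44 at 4 h, against 8.33, 8.31 and 8.70 at 0 h. All 4 h arrays were lower, and the stable fall was 3.12-fold (difference -1.64, SE 0.22, adjusted p 0.000978). IKZF3, the Aiolos transcription factor of B cells, had 7.98, 7.41 and 8.37 at 4 h, against 9.13, 9.13 and 9.59 at 0 h, and was 2.57-fold lower (adjusted p 0.0184). Its relative IKZF2, Helios, had 4.27, 4.01 and 4.69 at 4 h, against 5.85, 5.02 and 5.89 at 0 h, and was 2.4-fold lower (adjusted p 0.00772). Neither pair of groups overlapped. For IKZF3 4 of 6 omissions ended the call, with adjusted p up to 0.108, and IKZF2 lost it without replicate 2 of 4 h (0.0539). Neither IKZF3 (0.0549) nor IKZF2 (0.0772) was called in the fit on the 6 arrays alone.

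Called genes of the B cell lists are given with their shares. Of 23 B cell transcription factor genes 1 rose (4.35%, beside 1.16% of all genes) and 2 fell (8.70%, beside 0.586%). The rise was that of ID2, an inhibitor of E proteins, at 2.5-fold (adjusted p 0.03), which 5 of 6 omissions ended, with adjusted p up to 0.111. IRF4, a plasma cell regulator chosen after its values were seen, read 5.51, 5.88 and 6.54 at 4 h, against 4.17, 4.30 and 5.46 at 0 h, with replicate 3 the highest at both times, and missed the threshold at 0.0596. Of 21 B cell surface and germinal centre genes 1 rose, RGS16 at 2.19-fold, and 1 fell, RHOH. That was 4.76% each way, beside 1.16% of all genes called higher and 0.586% called lower. The RGS16 call was ended by 4 of 6 omissions, with adjusted p up to 0.103. Of 22 B cell receptor signalling genes 0 were called and 4 had an unadjusted p under 0.05, beside 2391 of all 18417 genes. The kinase gene BTK read 6.87, 6.71 and 6.50 at 4 h, against 7.46, 7.61 and 7.30 at 0 h (adjusted p 0.0677). The kinase gene LYN read 8.99, 9.06 and 9.53 at 4 h, against 8.12, 8.28 and 8.89 at 0 h (adjusted p 0.108). The complement receptor gene CR2, a B cell marker, read 6.55, 6.53 and 7.99 at 4 h, against 7.55, 7.79 and 9.07 at 0 h, where replicate 3 was the highest of each time and the groups overlapped.

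The called gene that fell most belonged to endosomal Toll-like receptor signalling. TASL, the adaptor that links TLR7 and TLR9 to IRF5, had 3.39, 3.69 and 3.15 at 4 h, against 5.11, 5.47 and 5.001 at 0 h. The 4 h arrays lay around the lower quartile of all genes, so the stable 3.44-fold fall (difference -1.78, SE 0.20, adjusted p 0.000284) may be understated. TLR7, the sensor of single-stranded RNA, went the other way, with 6.46, 6.76 and 4.87 at 4 h, against 5.01, 4.64 and 4.38 at 0 h. Replicate 3 of 4 h overlapped the 0 h arrays, and the 2.55-fold rise (adjusted p 0.048) was ended by 5 of 6 omissions, with adjusted p up to 0.257. These were the 2 called genes of 21 measured Toll-like receptor and adaptor genes (9.52%, beside 1.75% of all genes).

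Of 12 C-type lectin genes of lymphocytes 2 fell (16.7%, beside 0.586% of all genes called lower) and 0 rose. CLECL1, a lectin-like protein of B cells and dendritic cells, had 6.91, 6.36 and 6.51 at 4 h, against 7.96, 7.79 and 8.12 at 0 h, and was 2.57-fold lower (adjusted p 0.00425). CLEC2D, the ligand of the receptor KLRB1, had 8.13, 8.09 and 7.53 at 4 h, against 9.15, 8.93 and 9.11 at 0 h, and was 2.22-fold lower (adjusted p 0.00939). In both genes all 4 h arrays lay below all 0 h arrays, and both falls were stable. Without both arrays numbered 3 neither was called (adjusted p 0.0554 for CLECL1 and 0.0987 for CLEC2D).

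**Figure D3:**
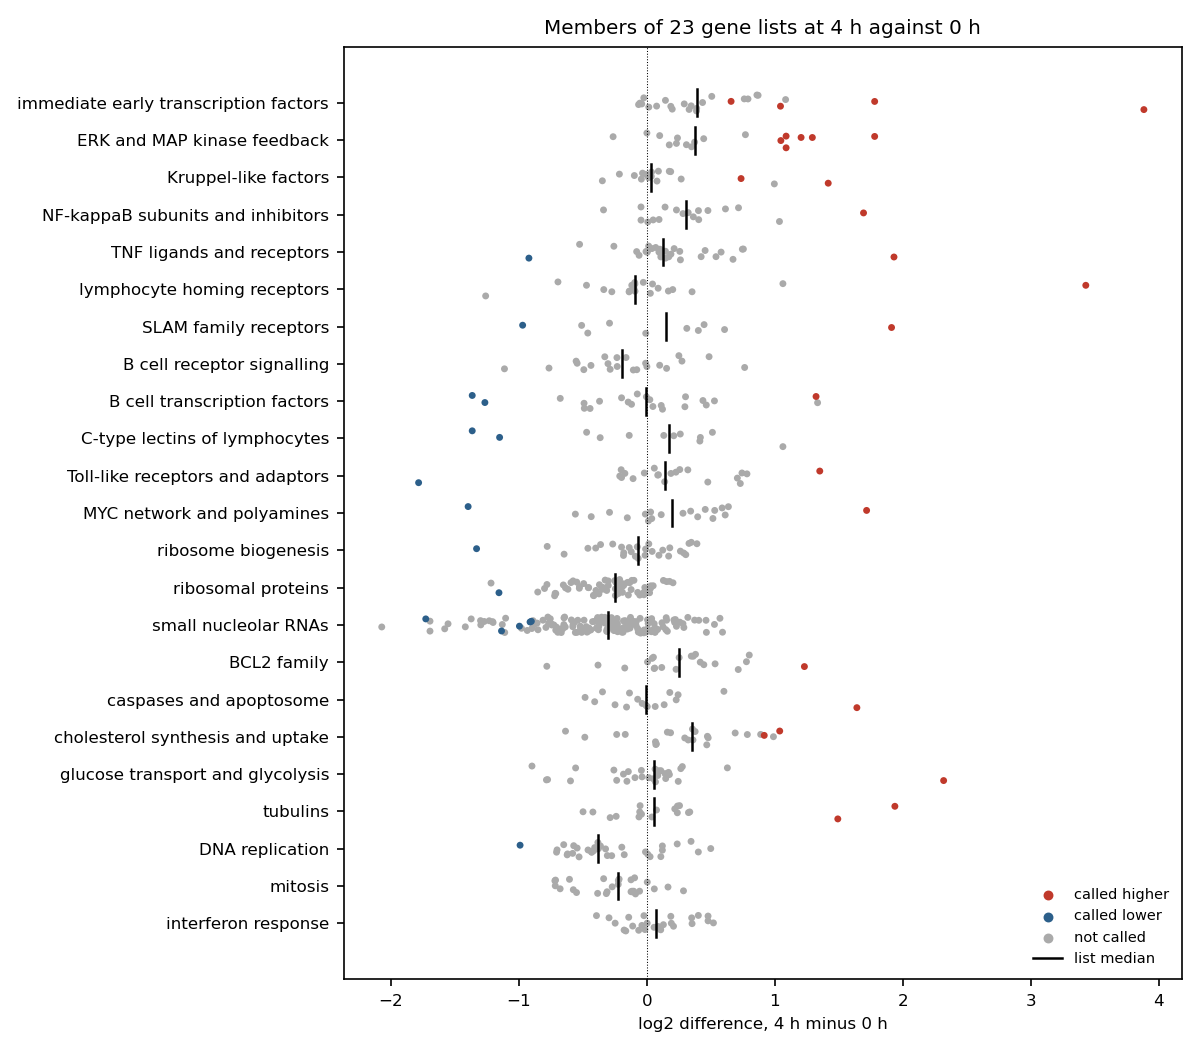
Difference in log2 intensity between 4 h and 0 h (horizontal axis) for the measured members of 23 gene lists (1 row each), with called genes in colour and a line at each list median. The ERK and MAP kinase feedback row holds 6 called genes of 17, all higher, while the B cell receptor signalling row holds 0 of 22.

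In the MYC network, the driver and an antagonist moved in opposite directions. MYC, which the translocation of Burkitt lymphoma places under immunoglobulin control, had 5.11, 5.12 and 4.79 at 4 h, against 6.74, 6.58 and 5.88 at 0 h. Replicate 3 was the lowest array of each time, and the groups did not overlap. The stable fall was 2.63-fold (difference -1.40, SE 0.20, adjusted p 0.0016). MXD1, which competes with MYC for MAX, had 5.41, 5.83 and 6.10 at 4 h, against 3.99, 3.94 and 4.26 at 0 h, a stable 3.29-fold rise (adjusted p 0.000632). These were the 2 called of 20 measured genes (10.0%, beside 1.75% of all genes). The polyamine enzyme gene ODC1, a MYC target chosen after its values were seen, averaged 11.82 ± 0.08 at 4 h and 11.84 ± 0.07 at 0 h (SD, n = 3 each).

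Genes of ribosome making showed small differences that mostly lacked a call. Of 29 ribosome biogenesis genes 1 fell (3.45%, beside 0.586% of all genes called lower). It was COIL, the scaffold protein of Cajal bodies, with 5.72, 5.24 and 6.05 at 4 h, against 7.03, 6.82 and 7.15 at 0 h. COIL was 2.51-fold lower (adjusted p 0.0244), and 5 of 6 omissions ended the call, with adjusted p up to 0.145. Of 65 ribosomal protein genes 57 differences were negative, beside 8431 of all 18417 genes, with a median of -0.24 beside 0.03 over all genes. The list mean was 9.11 to 9.67 on the 4 h arrays and 9.509 to 9.815 on the 0 h arrays, which overlap. Members of a list share these arrays and are not independent counts. Only RPL22L1, a paralog of RPL22, was called (1.54%, beside 0.586% of all genes called lower). RPL22L1 had 4.13, 3.66 and 3.48 at 4 h, against 4.77, 5.11 and 4.86 at 0 h, and 4 of 6 omissions ended its call, with adjusted p up to 0.107. Of 176 small nucleolar RNA genes 5 fell (2.84%, beside 0.586% of all genes called lower) and 0 rose, and 143 differences were negative, with a median of -0.30 beside 0.03 over all genes. Their list mean was 3.962 to 4.098 on the 4 h arrays and 4.308 to 4.533 on the 0 h arrays, without overlap. The number that fell moved widely, between 0 when replicate 1 of 4 h was left out and 18 under array weights. It was 1 when replicate 2 of 4 h or replicate 1 of 0 h was left out, 2 when replicate 2 of 0 h or the dim genes were left out, and 8 when replicate 3 of 4 h was left out. Median centring and the replicate block gave 8 each, and a covariate for the interquartile range gave 13. SNORD38A, with 3.15, 3.38 and 3.91 at 4 h, against 4.74, 4.61 and 4.50 at 0 h, was 2.2-fold lower (adjusted p 0.0178). SNORA41, SNORD20, SNORD77 and SNORA75 were 1.99-fold, 1.88-fold, 1.87-fold and 3.31-fold lower, all with 4 h means below the lower quartile of genes. In SNORA75 replicate 2 of 0 h, at 3.50, lay below replicate 1 of 4 h, at 3.55, and without replicate 2 of 0 h the fall was 5.29-fold. Of the 176 genes 60 were below the lower quartile of all genes on each 0 h array. The 5 calls were ended by 2 to 5 of the 6 omissions, with adjusted p up to 0.239. RNU11, the small nuclear RNA of the minor spliceosome, was 2.28-fold lower (adjusted p 0.041), and each of the 6 omissions ended the call.

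Of cell death genes 2 rose, on opposite sides of the pathway. APAF1, the core of the apoptosome that activates caspase 9, had 7.57, 7.55 and 7.99 at 4 h, against 6.27, 6.13 and 5.78 at 0 h, a stable 3.12-fold rise (adjusted p 0.000528). It was the 1 called of 17 caspase and apoptosome genes (5.88%, beside 1.75% of all genes). CASP8, with 6.68, 6.72 and 6.30 at 4 h, against 6.19, 5.88 and 5.82 at 0 h, had an adjusted p of 0.125. MCL1, a short-lived survival protein, had 9.65, 9.59 and 9.93 at 4 h, against 8.60, 8.39 and 8.48 at 0 h, a 2.35-fold rise (adjusted p 0.0203). It was the 1 called of 21 BCL2 family genes (4.76%, beside 1.75% of all genes). Of the 6 omissions 5 ended the call, with adjusted p up to 0.0898. Of 27 p53 target and CDK inhibitor genes 1 was called (3.70%, beside 1.75% of all genes). It was RRM2B, a ribonucleotide reductase subunit, 1.59-fold lower (adjusted p 0.0274), and 5 of 6 omissions ended that call, with adjusted p up to 0.128. CDKN1A, which encodes p21 and was chosen after its values were seen, averaged 5.49 ± 0.41 at 4 h and 4.67 ± 0.28 at 0 h (SD, n = 3 each), with an adjusted p of 0.223.

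Genes of replication and division had mostly negative differences, with a single call. Of 33 DNA replication genes 24 were lower by sign, beside 8431 of all 18417 genes, with a median of -0.38 beside 0.03 over all genes. The list mean was 6.998 to 7.323 on the 4 h arrays and 7.166 to 7.667 on the 0 h arrays, which overlap. Members of a list share these arrays and are not independent counts. GINS3, a subunit of the replicative helicase, was the 1 called (3.03%, beside 0.586% of all genes called lower). It was 1.99-fold lower (adjusted p 0.0494), a call that each of the 6 omissions ended. Of 27 mitosis genes 23 were lower by sign, with a median of -0.22, and 0 were called, while 4 had an unadjusted p under 0.05. Their list mean was 8.202 to 8.384 on the 4 h arrays and 8.485 to 8.681 on the 0 h arrays, without overlap. CDC7, the kinase that fires replication origins, was outside these lists and among the largest falls. It had 7.22, 7.10 and 7.14 at 4 h, against 8.44, 8.22 and 8.25 at 0 h, and was 2.22-fold lower (adjusted p 0.0184). Its groups were far apart beside their spread, but 5 of 6 omissions ended the call, with adjusted p between 0.0504 and 0.0789.

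In metabolism, the transporter SLC2A3 led. SLC2A3, the high-affinity glucose carrier GLUT3, had 8.43, 8.42 and 9.56 at 4 h, against 5.86, 5.70 and 7.89 at 0 h. Replicate 3 was the highest array of each time, and the 4 h arrays still lay above it. The 4.99-fold rise (difference 2.32, SE 0.44, adjusted p 0.0111) was lost without replicate 2 of 0 h (0.0635) and was 8.13-fold without replicate 3 of 0 h. It was not called in the fit on the 6 arrays alone (0.107), and without both arrays numbered 3 the adjusted p was 0.000362. The probe set may also read its near-identical relative SLC2A14, whose own probe set gave 2.84, 4.24 and 3.86 at 4 h, against 3.04, 3.24 and 2.77 at 0 h. SLC2A3 was the 1 called of 30 glucose transport and glycolysis genes (3.33%, beside 1.75% of all genes).

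Of 329 solute carrier genes 6 rose (1.82%, beside 1.16% of all genes called higher) and 0 fell. Besides SLC2A3 these were SLC30A1, which exports zinc, at 2.63-fold, and SLC24A1, a sodium and calcium exchanger, at 1.91-fold. The thiamine carrier SLC19A2 was 1.82-fold, the zinc importer SLC39A6 1.56-fold and the chloride cotransporter SLC12A2 1.53-fold higher. SLC30A1 had 7.15, 6.99 and 7.45 at 4 h, against 6.14, 5.34 and 5.93 at 0 h, without overlap. These 5 calls were ended by 2 to 6 of the 6 omissions, with adjusted p up to 0.172. ATP1B1, a subunit of the sodium pump, was among the largest rises, with 7.43, 7.32 and 7.84 at 4 h, against 5.23, 5.86 and 6.01 at 0 h. Its stable rise was 3.56-fold (adjusted p 0.000978).

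Of 23 genes of cholesterol synthesis and uptake 2 rose (8.70%, beside 1.16% of all genes called higher) and 0 fell, and 19 differences were positive, with a median of 0.36 beside 0.03 over all genes. After median centring 0 were called, in the fit on the 6 arrays alone 1, with array weights 4, without replicate 3 of 0 h 1 and without any other of the 6 arrays 0. The desaturase gene SC5D was 2.06-fold higher (adjusted p 0.0338). INSIG1, which holds the sterol sensor in the endoplasmic reticulum, had 9.52, 9.48 and 9.74 at 4 h, against 8.64, 8.72 and 8.63 at 0 h, and was 1.89-fold higher (adjusted p 0.0419). For SC5D 5 and for INSIG1 all 6 omissions ended the call, with adjusted p up to 0.183. Of 25 lysosome and autophagy genes 1 rose (4.0%, beside 1.16% of all genes called higher). It was the alpha-galactosidase gene GLA at 2.11-fold (adjusted p 0.0449), which 5 of 6 omissions ended, with adjusted p up to 0.176. Of 25 stress response genes, for unfolded proteins or blocked translation, 1 rose (4.0%, beside the same 1.16%). It was the chaperone gene DNAJC3 at 1.63-fold (adjusted p 0.0209), which 5 of 6 omissions ended, with adjusted p up to 0.0898. PPP1R15A, which reverses the block of translation, read 6.53, 5.92 and 8.17 at 4 h, against 4.92, 5.13 and 6.35 at 0 h, where replicate 3 was the highest of each time and the groups overlapped (adjusted p 0.172).

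Of 18 tubulin genes 2 rose (11.1%, beside 1.16% of all genes called higher) and 0 fell. TUBB2A, a beta-tubulin best known from neurons, had 7.81, 7.39 and 8.28 at 4 h, against 6.35, 5.74 and 5.58 at 0 h, a stable 3.83-fold rise (difference 1.94, SE 0.34, adjusted p 0.00678) that was not called without both arrays numbered 3 (0.0987). A second probe set of the gene held the same values and another of lower level differed by 0.48 and was not called (adjusted p 0.553), so the size rests on the probe set chosen. TUBD1, a delta-tubulin of centrioles, had 7.32, 7.11 and 6.78 at 4 h, against 5.94, 5.31 and 5.48 at 0 h, a stable 2.82-fold rise (adjusted p 0.000978). The RefSeq window of TUBB2A, on chromosome 6, is shown because it held the most matches among the 6 largest rises with a window. It spans chr6:3157495-3157794 of GRCh38.p14 and is given on the minus strand, with matches to the CRE TGACGTCA and to the Sp1 motif GGGCGG, on either strand, in capitals.
TUBB2A: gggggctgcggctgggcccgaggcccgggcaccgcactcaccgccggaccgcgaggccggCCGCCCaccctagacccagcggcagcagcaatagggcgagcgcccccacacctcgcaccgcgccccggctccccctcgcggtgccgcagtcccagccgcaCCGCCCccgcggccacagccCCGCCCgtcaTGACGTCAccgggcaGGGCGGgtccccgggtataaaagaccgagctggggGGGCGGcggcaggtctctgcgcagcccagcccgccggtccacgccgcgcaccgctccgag
The CRE lies at positions -60 to -53 and 5 Sp1 motifs lie in the same window. The CRE was found in 5.52% of the windows of genes called higher and 2.5% of those called lower, beside 2.65% of all. The Sp1 motif was found in 74.0% of the windows of genes called higher and 61.2% of those called lower, beside 60.0% of all. These shares are descriptions without a test.

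Other large rises belonged to none of these lists. ZSWIM6, a zinc finger protein known from brain development, had 8.25, 8.37 and 8.77 at 4 h, against 6.31, 5.97 and 6.70 at 0 h, a stable 4.4-fold rise (adjusted p 0.000741). Its window, chr5:61332008-61332307 of GRCh38.p14 on the plus strand, carries 2 Sp1 motifs, in capitals.
ZSWIM6: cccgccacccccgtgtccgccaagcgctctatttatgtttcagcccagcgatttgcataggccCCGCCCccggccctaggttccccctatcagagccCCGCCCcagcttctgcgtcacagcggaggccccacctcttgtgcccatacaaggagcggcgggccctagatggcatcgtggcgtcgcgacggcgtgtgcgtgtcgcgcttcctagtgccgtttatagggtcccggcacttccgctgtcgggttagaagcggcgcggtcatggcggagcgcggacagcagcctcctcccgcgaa
TIPARP, a mono-ADP-ribosyltransferase induced by the aryl hydrocarbon receptor, had 7.86, 8.09 and 8.64 at 4 h, against 6.09, 6.43 and 6.64 at 0 h, and was 3.51-fold higher (adjusted p 0.000528). TENT5C, a poly(A) polymerase of plasma cells, had 6.18, 6.21 and 7.07 at 4 h, against 4.55, 4.37 and 4.96 at 0 h, and was 3.63-fold higher (adjusted p 0.000632). Neither pair of groups overlapped, and both rises were stable. KBTBD8, a substrate adaptor of a ubiquitin ligase, had 9.07, 9.09 and 9.06 at 4 h, against 7.51, 7.55 and 7.39 at 0 h, which is the tightest separation among the 25 largest rises by the SD of the 4 h arrays. MYADM, SPTY2D1 and ARID3B were 3.6-fold, 3.14-fold and 3.24-fold higher and stable. In the fit on the 6 arrays alone MYADM (adjusted p 0.0739) and SPTY2D1 (0.0505) were not called, and a second probe set of ARID3B differed by only 0.14. PRKXP1, a pseudogene whose probes may also read its parent gene PRKX, was 3.68-fold higher, and 5 of 6 omissions ended the call, with adjusted p up to 0.103.

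Numbered zinc finger genes moved both ways. Of 480 measured ZNF genes 11 rose (2.29%, beside 1.16% of all genes) and 8 fell (1.67%, beside 0.586%), and the list median was 0.03, as over all genes. ZNF597, an imprinted gene on chromosome 16, had 7.63, 7.13 and 7.45 at 4 h, against 5.49, 5.30 and 5.72 at 0 h, a stable 3.73-fold rise (adjusted p 0.000159). ZNF75A, on the same chromosome, had 6.45, 6.65 and 7.15 at 4 h, against 5.02, 4.44 and 5.14 at 0 h, a stable 3.69-fold rise (adjusted p 0.000978), though a second probe set differed by 1.09 and was not called (0.099). ZNF791 was 2.84-fold higher and stable, and ZNF555 was 2.3-fold higher with a call that each of the 6 omissions ended. ZNF33A had 5.56, 5.16 and 5.03 at 4 h, against 6.85, 6.62 and 6.98 at 0 h, a stable 2.96-fold fall (adjusted p 0.00179). Its close copy ZNF33B, chosen after its values were seen, also fell, by 1.04 on the log2 scale (adjusted p 0.0117), a call lost without replicate 2 of 4 h (0.0531), and the probes may not tell the pair apart. ZNF181 was 2.29-fold lower and stable, though not called without both arrays numbered 3 (0.0554). ZFP62, a relative outside the numbered names, had 5.12, 5.08 and 4.75 at 4 h, against 6.32, 6.40 and 6.80 at 0 h, a stable 2.88-fold fall (adjusted p 0.00579) that was not called without both arrays numbered 3 (0.081).

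Falls outside the lists included CTCF, the insulator protein that shapes chromatin loops. CTCF had 7.97, 7.96 and 7.91 at 4 h, against 9.001, 9.10 and 9.33 at 0 h, with nearly equal 4 h arrays and no overlap, a stable 2.29-fold fall (difference -1.20, SE 0.16, adjusted p 0.000978). RUNX1T1, a corepressor gene that recruits histone deacetylases, had 4.54, 4.26 and 4.88 at 4 h, against 6.12, 5.95 and 5.34 at 0 h, and was 2.38-fold lower and stable, though not called in the fit on the 6 arrays alone (adjusted p 0.0634). RNF144B, a ubiquitin ligase, had 7.13, 7.06 and 7.41 at 4 h, against 8.38, 8.43 and 8.38 at 0 h, and was 2.29-fold lower and stable. PPIL1, a cyclophilin of the spliceosome, was 2.3-fold lower and stable. MMAA, a chaperone of mitochondrial vitamin B12 metabolism, had 4.78, 4.55 and 4.08 at 4 h, against 5.61, 5.90 and 6.61 at 0 h, and was 2.97-fold lower (adjusted p 0.0284). The mismatch repair gene MLH3, the acetyltransferase adaptor gene TADA2A, the G protein gene GNAL and the zinc finger gene ZBTB14 were 2.45-fold, 2.46-fold, 2.37-fold and 2.23-fold lower. LIPT2-AS1, an antisense RNA, was 3.33-fold lower, and LOC285097 was 2.71-fold lower. TAS2R46, a bitter taste receptor gene, had 3.25, 3.40 and 3.51 at 4 h, against 4.48, 4.66 and 4.92 at 0 h. It was the 1 called of 368 olfactory and taste receptor genes (0.272%, beside 1.75% of all genes). The calls of MMAA, MLH3, TADA2A, GNAL, ZBTB14, LIPT2-AS1, LOC285097 and TAS2R46 were ended by 3 to 6 of the 6 omissions, with adjusted p up to 0.142.

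For several families no member passed at 4 h. Their counts at an unadjusted p under 0.05 stand beside 2391 of all 18417 genes. Of 23 histone deacetylase and acetyltransferase genes 0 were called, with 3 at an unadjusted p under 0.05, among them EP300, which read 8.88, 9.04 and 9.37 at 4 h, against 8.67, 8.09 and 8.47 at 0 h (adjusted p 0.0854). HDAC1, the deacetylase chosen after its values were seen, averaged 10.48 ± 0.27 at 4 h and 10.52 ± 0.14 at 0 h (SD, n = 3 each). Of 26 interferon response genes 0 were called and 1 had an unadjusted p under 0.05, and 9 lay below the lower quartile on each 0 h array. IRF9, a subunit of the interferon-stimulated complex, read 5.03, 4.99 and 5.43 at 4 h, against 4.66, 4.66 and 4.58 at 0 h (adjusted p 0.298). Of 18 heat shock protein genes 0 were called, with 3 at an unadjusted p under 0.05, and of 21 NRF2 target and metallothionein genes 0, with 4. SRXN1, which repairs oxidised peroxiredoxins, read 5.94, 5.59 and 6.81 at 4 h, against 4.46, 5.16 and 5.14 at 0 h (adjusted p 0.0743). Of 57 replication-dependent histone genes 0 were called and 9 had an unadjusted p under 0.05, with a median difference of -0.24. Of 189 genes with microRNA names, host genes among them, 1 rose and 1 fell. That was 0.529% each way, beside 1.16% of all genes called higher and 0.586% called lower. MIR9-1HG, a host gene whose probe set reads the host transcript and no microRNA, differed by 0.61 and MIR98 by -0.62 on the log2 scale, both near or below the lower quartile of genes, and 5 of 6 omissions ended each call, with adjusted p up to 0.207.

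**Figure D4:**
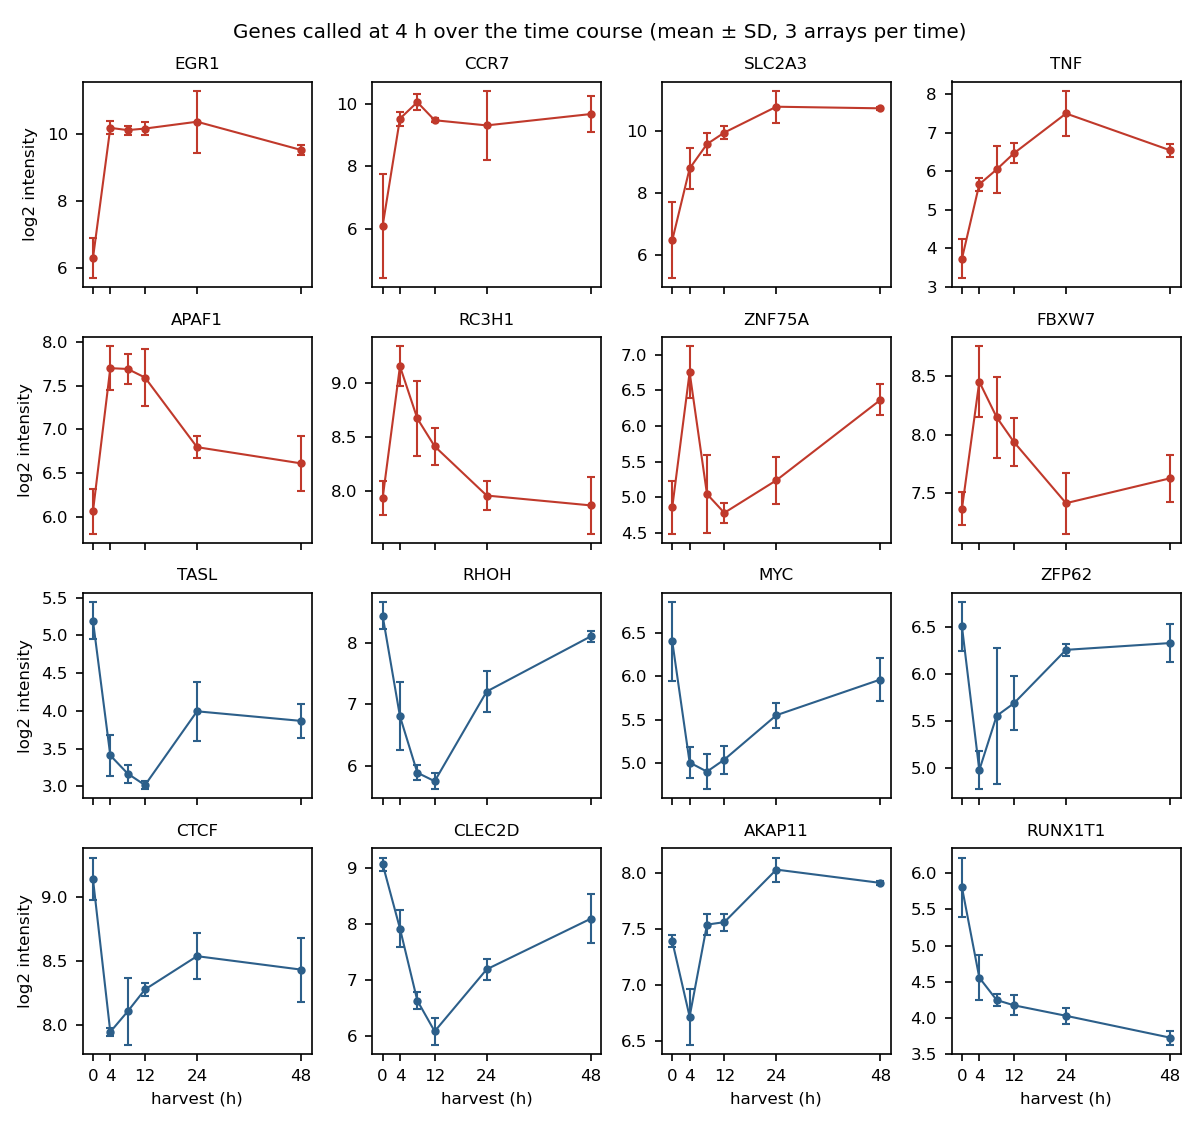
Mean log2 intensity with SD over 3 arrays (vertical axis) against hours under treatment (horizontal axis, 0 to 48 h) for 16 genes called at 4 h. EGR1 stays between 9.53 and 10.37 from 4 h on, while ZNF75A stands at 6.75 at 4 h and 5.05 at 8 h.

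The later arrays show how the 4 h levels continued. The comparisons of later times with 4 h use the same 4 h arrays as the comparison with 0 h, so an unusually high or low 4 h array moves both, and the levels are given side by side. Against 4 h, the test was passed by 0.223%, 1.58%, 7.98% and 9.79% of all genes at 8, 12, 24 and 48 h. EGR1 averaged 6.30 ± 0.59, 10.19 ± 0.19, 10.12 ± 0.14, 10.17 ± 0.19, 10.37 ± 0.92 and 9.53 ± 0.14 at 0, 4, 8, 12, 24 and 48 h (SD, n = 3 each). For EGR1 none of the 4 later times passed against 4 h. TNF averaged 3.73 ± 0.50, 5.66 ± 0.17, 6.05 ± 0.62, 6.47 ± 0.26, 7.501 ± 0.59 and 6.55 ± 0.17 over the same times, and 24 h was higher than 4 h by 1.84 (adjusted p 0.000914). SLC2A3 averaged 6.48 ± 1.22, 8.80 ± 0.66, 9.59 ± 0.35, 9.96 ± 0.22, 10.80 ± 0.51 and 10.75 ± 0.05, and 24 h was higher than 4 h by 1.996 (adjusted p 0.00739).

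The following risers were chosen because they were lower at 24 h than at 4 h, so that turn is no finding. ZNF75A averaged 4.87 ± 0.37, 6.75 ± 0.36, 5.05 ± 0.55, 4.79 ± 0.14, 5.24 ± 0.33 and 6.37 ± 0.22 at 0, 4, 8, 12, 24 and 48 h (SD, n = 3 each), and it was lower at 8 h than at 4 h by the test (adjusted p 0.0102). RC3H1, the RNA-binding protein Roquin, averaged 7.93 ± 0.16, 9.16 ± 0.18, 8.41 ± 0.17 and 7.95 ± 0.14 at 0, 4, 12 and 24 h (SD, n = 3 each), and its 4 h rise of 2.35-fold (adjusted p 0.00194) was stable. FBXW7, the ubiquitin ligase subunit that targets MYC and cyclin E, averaged 7.37 ± 0.14, 8.45 ± 0.30 and 7.41 ± 0.26 at 0, 4 and 24 h (SD, n = 3 each), and its 2.13-fold rise at 4 h was stable, though not called without both arrays numbered 3 (adjusted p 0.0689). FLVCR1, a heme exporter, was 2.18-fold higher at 4 h and at 24 h lower than at 4 h by 1.25 on the log2 scale (adjusted p 0.000212). Its 4 h rise was stable, though not called in the fit on the 6 arrays alone (adjusted p 0.0549). The centrosome gene CEP76, the lysosomal channel gene MCOLN2, KLHL15 and SPATA31G1 were 2.01-fold, 1.75-fold, 2.15-fold and 2.39-fold higher at 4 h and lower at 24 h than at 4 h. Their 4 h calls were ended by 2 to 5 of the 6 omissions, with adjusted p up to 0.169, and a second probe set of SPATA31G1 differed by 0.54.

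Courses are also given for MYC, RHOH and RUNX1T1 and for falls chosen because they were higher at 24 h than at 4 h. MYC averaged 6.40 ± 0.46, 5.005 ± 0.18, 4.90 ± 0.20, 5.04 ± 0.16, 5.55 ± 0.14 and 5.96 ± 0.24 at 0, 4, 8, 12, 24 and 48 h (SD, n = 3 each), and 48 h was higher than 4 h by 0.96 (adjusted p 0.00439). RHOH averaged 8.45 ± 0.22, 6.80 ± 0.55, 5.89 ± 0.13, 5.75 ± 0.13, 7.21 ± 0.33 and 8.11 ± 0.09, the lowest level being at 12 h. ZFP62 averaged 6.51 ± 0.26 at 0 h, 4.98 ± 0.20 at 4 h and 6.26 ± 0.06 at 24 h, and MMAA averaged 6.04 ± 0.51 at 0 h, 4.47 ± 0.36 at 4 h and 6.90 ± 0.63 at 24 h, both higher at 24 h than at 4 h by the test (adjusted p 0.00461 and 0.00029). AKAP11, an anchor of protein kinase A, averaged 7.39 ± 0.05, 6.72 ± 0.25, 7.54 ± 0.10 and 8.03 ± 0.11 at 0, 4, 8 and 24 h. Its relative AKAP10 was 1.77-fold lower at 4 h and at 24 h higher than at 4 h by 0.78. ZNF624, LCMT2, FANCF of the Fanconi pathway and TAF12 of the basal transcription machinery were 2.12-fold, 2.04-fold, 1.83-fold and 1.79-fold lower at 4 h and likewise higher at 24 h than at 4 h. For AKAP11, AKAP10, ZNF624, LCMT2, FANCF and TAF12 between 2 and 5 of the 6 omissions ended the 4 h call, with adjusted p up to 0.139. RUNX1T1 stayed low, with 5.81 ± 0.41 at 0 h, 4.56 ± 0.31 at 4 h and 3.73 ± 0.10 at 48 h.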

How the data were processed

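The mRNA of Raji cells at 4 h and 0 h was compared within 18 Affymetrix arrays, 3 biological replicates per time per the labels. The deposited values are log2 intensities made by the authors, 1 per probe set. The log base was deduced from their range, and the software, background correction and normalization are not given in the sources used here. Of 33297 probe sets 19460 named 1 gene, 1754 several and 12083 none here. Of the first kind 19429 matched the reference gene table by ID. Each of the 18417 genes took its probe set of highest mean, which mattered for the 769 genes with several.

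limma 3.58.1 in R 4.3.3 was fitted to all 18 arrays with time as the only term (12 residual and 5.58 prior degrees of freedom), checked on simulated data first. Moderated two-sided tests of 4 h minus 0 h, and of the later times minus 4 h, were adjusted by Benjamini-Hochberg over all genes, and a gene was called at an adjusted p under 0.05. Tables were made with Python 3.11.15 and pandas 2.3.3. Adjusted p values in the text come from that fit unless another is named. With 3 arrays per time precision is limited, and the choice of arrays and their normalization also moved the counts, as given below.

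Named genes are the 25 largest rises and falls among called genes whose groups did not overlap, up to 6 called members of each of 44 gene lists, the 2 of smallest p where fewer than 2 passed, and up to 8 genes in each direction that turned back by 24 h. The members and lists were chosen with earlier results of these data known. Promoter windows came from RefSeq (GRCh38.p14) by gene ID, for 14237 genes. The alternatives were the 6 arrays alone, quantile normalization, median centring, a filter on dim genes, other probe set rules, array weights, a variance trend, the interquartile range as a covariate, a replicate block and leaving out arrays.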

Additional observations from a re-analysis of the deposited data

Results flagged for a closer look

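Of the 322 genes called at 4 h against 0 h, 9 also differed between 8 h and 4 h by limma's test. Of all 18417 genes 41 (0.223%) did. The comparisons share the 4 h arrays, so an unusually high or low 4 h array moves both. The count is therefore no finding. Further above 4 h at 8 h were ABCB1, the drug efflux pump P-glycoprotein, by 1.287 (adjusted p 0.0447), and ARHGEF12, a guanine nucleotide exchange factor, by 0.962 (0.0298), both on the log2 scale and both higher at 4 h than at 0 h. ABCB1 averaged 4.36 ± 0.63, 5.44 ± 0.17 and 6.73 ± 0.12 at 0, 4 and 8 h (SD, n = 3 each). The calls of ABCB1 and ARHGEF12 at 4 h against 0 h were ended by 5 and 4 of the 6 single-array omissions, with adjusted p up to 0.202, and those of FBXO4 and RCSD1 by 4 each, up to 0.0994. Of the genes that fell by 4 h, CD84 (-1.297), CLEC2D (-1.286), FBXO4 (-1.124) and RCSD1 (-1.098) were lower still at 8 h, with adjusted p between 0.0141 and 0.0315. AKAP11 (0.823) and TAF12 (0.92) had fallen by 4 h and were higher at 8 h than at 4 h, with adjusted p of 0.0141 and 0.0319. ZNF75A (-1.703) had risen by 4 h and was lower at 8 h than at 4 h (0.0102).

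Of 13837 probe sets that name no gene or several genes here and enter no comparison above, 9 (0.065%) passed the same test, 2 higher and 7 lower at 4 h. The higher ones averaged 8.26 and 6.49 at 4 h, against 7.07 and 4.69 at 0 h.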

How the results depend on the processing

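Beside the 322 genes called (214 higher, 108 lower, 123 and 50 of them at least 2-fold), the fit on the 6 arrays alone called 125 (80 higher, 45 lower, 66 at least 2-fold higher). Array weights called 566 (325 higher, 241 lower, 83 at least 2-fold lower) and the interquartile range as a covariate 526 (317 higher, 209 lower). Leaving out both arrays numbered 3, chosen after seeing the data, called 146 (105 higher, 41 lower). Without 1 of the 6 arrays the counts ran between 109 and 256 in all, 82 and 184 higher, 22 and 97 lower, 58 and 120 at least 2-fold higher, and 18 and 68 at least 2-fold lower. The lowest were without replicate 2 of 4 h or, for higher genes, without replicate 2 of 0 h. Centring each array on its median turned the share of higher calls to 53.2%, against 66.5%. Quantile normalization (258 higher, 134 lower), the filter on dim genes (349), the 2 other probe set rules (330 each) and a variance trend (278) stayed within 1.5 times. Same-numbered arrays of 4 h and 0 h had deviations that correlated at 0.218, 0.083 and 0.322. Different-numbered arrays correlated at -0.008, -0.177, 0.208, -0.259, -0.31 and -0.059, where 0.208 belongs to replicate 2 of 4 h and replicate 1 of 0 h. The labels do not say whether arrays of the same number belong together, so the main fit has no term for it. Whether they do was not tested. The replicate block called 374 (239 higher, 135 lower). Of 100 named calls 23 held under all 17 alternatives, and 36 held under each single-array omission. The cause of these shifts was not tested. Changes of dim genes may be lost in background signal.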

Other observations

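Single genes outside the lists, chosen after their values were seen, also passed the test at 4 h, where 1.75% of all genes did. AFF4, a scaffold of the super elongation complex of RNA polymerase II, had 8.71, 8.65 and 9.06 at 4 h, against 7.53, 7.51 and 8.04 at 0 h, a 2.16-fold rise (adjusted p 0.00194) that held without any 1 of the 6 arrays. HEXIM1, which holds the elongation kinase P-TEFb inactive, had 6.16, 6.32 and 7.16 at 4 h, against 6.08, 4.99 and 5.16 at 0 h, and was 2.19-fold higher (adjusted p 0.0339), the lowest 4 h array lying just above the highest 0 h array. GTF2B, a general initiation factor, was 2.05-fold higher (adjusted p 0.0179), and SNAPC1, a subunit of the complex that starts small nuclear RNA genes, was 2.17-fold higher (adjusted p 0.00579). The SNAPC1 call held without any 1 of the 6 arrays, while 4 of 6 such omissions ended that of HEXIM1, with adjusted p up to 0.193, and 4 that of GTF2B, up to 0.0735.

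MTF1, the metal-responsive factor that drives SLC30A1, had 8.41, 8.43 and 8.90 at 4 h, against 7.32, 7.23 and 7.07 at 0 h, a 2.59-fold rise without overlap (adjusted p 0.00425). The copper pump gene ATP7A was 2.26-fold higher (adjusted p 0.0165). MAP3K8, a kinase upstream of ERK also called TPL2, had 7.47, 7.41 and 7.29 at 4 h, against 5.90, 5.82 and 6.32 at 0 h, and was 2.6-fold higher (adjusted p 0.00192). ETV5, an ETS factor downstream of ERK, was 2.21-fold higher (adjusted p 0.0143). Of receptor genes, IL10RA was 2.05-fold higher (adjusted p 0.0184) and IL7R, with 7.06, 6.70 and 6.66 at 4 h, against 8.30, 7.62 and 7.86 at 0 h, was 2.17-fold lower (adjusted p 0.0261). CHEK2, the DNA damage checkpoint kinase, had 4.83, 4.42 and 5.22 at 4 h, against 5.67, 5.82 and 6.10 at 0 h, and was 2.05-fold lower (adjusted p 0.0064). The calls of MTF1, MAP3K8 and CHEK2 held without any 1 of the 6 arrays, though MTF1 was not called without both arrays numbered 3 (0.0637) and CHEK2 was not called in the fit on the 6 arrays alone (0.0793). Of the 6 omissions 3 ended the calls of ATP7A and ETV5, 2 that of IL10RA and 4 that of IL7R, with adjusted p up to 0.113.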
